A study of Mus musculus with 8 samples.

Results

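The 36 genes described here encode the transcription factors MYC and N-MYC, 2 enzymes of polyamine synthesis, and proteins of the nucleolus that make and assemble ribosomes. They were taken as a list of gene names, with every probe of each gene on the array, and not by a cut on their measured values. The list was chosen with earlier results of these data known. All 36 were measured, among 19020 genes tested, by 64 probes of which all passed the filter on dim probes. The gene's level is that of its brightest probe, which was well above background on all 8 arrays for each of the 36, and 18 genes had further probes, up to 4 per gene.

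RNA came from TEC100.4, an immortalized mouse line of cortical thymic epithelium, the stromal cell of the thymus in which developing T cells are first selected. One derived line carries a doxycycline-inducible mutant of the δ isoform of TFII-I, a transcription factor with several splice isoforms, and another carries a mutant of the β isoform. There were 4 groups of 2 arrays: the δ line cultured for 24 h with doxycycline, the δ line cultured without it, the β line with doxycycline and the β line without it. Each isoform is represented by 1 line, and no line without a mutant was treated, so the drug, the mutant protein and the history of a line cannot be told apart. A genotype label names the wild type protein for untreated cells, whereas the titles name the same mutant lines without doxycycline, and the groups follow the titles. Nothing in the labels ties the 2 arrays of a group to independent cultures, and the p-values therefore describe the spread among these samples alone, possibly a technical one.

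MYC and N-MYC bind DNA with their partner MAX at E-box sequences and raise transcription of many growth genes, while the MXD proteins pair with MAX at the same sites and repress. Ribosome production starts in the nucleolus, where RNA polymerase I transcribes the precursor of ribosomal RNA. Small nucleolar ribonucleoproteins (snoRNPs) then modify that RNA, those of the box C/D type by methylation and those of the box H/ACA type by pseudouridylation, and assembly factors fold and cleave it into the small and the large subunit. Genes of this programme are textbook targets of MYC, and epithelial cells of the thymus are among the tissues whose growth has been linked to MYC.

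The consensus E-box of MYC and MAX, CACGTG, reads the same on both strands. RefSeq promoters of assembly GRCm38.p6, covering 250 bases before to 50 after the gene start, were at hand for 28 of the 36 genes. The letters were found in 6 of these 28 (21.4%) and in 2187 of 27025 promoters of all genes (8.09%). With the 250 bases before the start alone, they were found in 1 of 28 (3.57%) and in 1854 of 27025 (6.86%), since 5 of the 6 matches lie after the start. A match is a description of the sequence and not a binding site. The 30 bases around each match are shown with the E-box in capitals and the gene's own strand written 5′ to 3′.
Nop2: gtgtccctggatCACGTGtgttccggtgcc
Pes1: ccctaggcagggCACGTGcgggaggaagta
Tsr1: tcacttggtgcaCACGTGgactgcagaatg
Mybbp1a: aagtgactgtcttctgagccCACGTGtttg
Wdr43: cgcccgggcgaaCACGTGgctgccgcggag
Utp20: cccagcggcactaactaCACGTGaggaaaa
These windows are at chr6:125131811-125131840 (Nop2), chr11:3963965-3963994 (Pes1), chr11:74898092-74898121 (Tsr1), chr11:72441347-72441376 (Mybbp1a) and chr17:71616220-71616249 (Wdr43) on the plus strand and at chr10:88826765-88826794 (Utp20) on the minus strand. The motif of Nop2 begins 60 bases before the gene start (-60), and those of the other 5 genes begin between positions 3 and 41 after it.

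The values are log2 spot intensity minus the array's 75th percentile, so 0 is that percentile and 1 unit is a 2-fold change. The probes well above background numbered at least 43348 on each treated array (highest 45082) and at most 40699 on each untreated array (lowest 39514), and no probe was saturated. All arrays lay on 1 slide with treated arrays in 1 row and untreated arrays in the other, and the effects of row and drug cannot be told apart. On the untreated δ array 1, 79 of 1008 tiles of 8 by 8 spots deviated from the other arrays by over 0.3 in log2, against 0 to 14 tiles on the other arrays. Probes with a spot in such a tile are named where they bear on a result. Gtf2i, the gene of TFII-I, read 5.28 and 5.26 in δ cells with doxycycline, 5.29 and 5.07 in δ cells without it, 4.58 and 4.66 in β cells with it and 4.39 and 4.63 in β cells without it. Whether its probe detects the induced mutant was not tested.

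The first question was how the members differed between the δ and the β line, at the same treatment. Myc was lower in the δ line and Mycn was higher. On the brighter of its 2 probes (A_52_P108346), Myc read -1.01 and -1.10 in δ cells with doxycycline, against -0.31 and -0.29 in β cells with doxycycline. Without doxycycline it read -0.65 and -0.71 in δ cells, against 0.13 and 0.05 in β cells. All 4 δ arrays were below all 4 β arrays. The log2 difference was -0.76 ± 0.09 (SE, 1.69-fold lower; limma adjusted p = 0.00396) with doxycycline and -0.77 ± 0.09 (1.71-fold lower; adjusted p = 0.00336) without it. The call with doxycycline was lost without the treated δ array 2 (adjusted p = 0.0536), and the one without doxycycline was lost only when the 4 untreated arrays were fitted alone (adjusted p = 0.0598).

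The dimmer Myc probe (A_52_P278549) read -2.21 and -2.13 in δ cells with doxycycline, against -1.97 and -1.99 in β cells with it. Without doxycycline it read -2.32 and -2.20 in δ cells, against -1.93 and -1.87 in β cells. It was again below in all 4 δ arrays, by smaller amounts. Its differences were -0.19 with doxycycline (adjusted p = 0.312 over all 44323 probes tested) and -0.36 without it (adjusted p = 0.0991), and its spot on the untreated δ array 1 lay in a deviating tile.

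Mycn, the family member best known from neural and embryonic tissue, had 1 probe. It read 2.68 and 2.66 in δ cells with doxycycline, against 2.01 and 2.09 in β cells with doxycycline. Without doxycycline it read 2.71 and 2.49 in δ cells, against 2.01 and 2.34 in β cells. The 4 δ values lay above the 4 β values, and the treated arrays of each line lay close together. The difference was 0.62 ± 0.14 with doxycycline (1.54-fold higher; adjusted p = 0.0362) and 0.43 ± 0.14 without it (adjusted p = 0.109). The call with doxycycline was kept in 11 of 18 alternatives and was lost without either treated array of either line (adjusted p between 0.107 and 0.196).

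Genes of 3 MXD proteins ran opposite to Myc between the lines. Of 12 further genes of the MYC and MAX network, 0 were lower and 3 higher in δ cells with doxycycline by the test, and the same counts held without it. Over all genes 15.2% passed in either direction with doxycycline and 13.2% without it. Over the 12 genes the median difference was 0.29 with doxycycline and 0.21 without it, beside medians over all 19020 genes of -0.01 and 0.02. Mxi1, which encodes a MAX partner that represses, read 2.79 and 2.77 in δ cells with doxycycline, against 1.97 and 1.92 in β cells with doxycycline. Without doxycycline Mxi1 read 2.41 and 2.61 in δ cells, against 1.46 and 1.72 in β cells. The lines did not overlap, with differences of 0.83 (adjusted p = 0.00945) and 0.92 (adjusted p = 0.00616).

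Mxd1, a further repressor of the family, read -1.36 and -1.47 in δ cells with doxycycline, against -2.25 and -2.10 in β cells with it, and its difference was 0.76 (adjusted p = 0.00724). Without doxycycline Mxd1 differed by 0.61 (adjusted p = 0.0157), and its second, dimmer probe differed by only 0.06 and 0.22. Mxd4 read -0.38 and -0.39 in δ cells with doxycycline, against -0.92 and -0.73 in β cells with it. Mxd4 differed by 0.44 with doxycycline (adjusted p = 0.0423) and by 0.64 without it (adjusted p = 0.0131). By this test 3 genes of MAX-dependent repressors were higher in the δ line in both treatments. With doxycycline these calls were lost without either treated δ array for Mxd1 (adjusted p up to 0.0817), without any of the 4 treated arrays for Mxi1 (up to 0.0876) and without 6 of the 8 arrays for Mxd4 (up to 0.232). Without doxycycline Mxd1 was lost without array 1 of either untreated group (up to 0.0638) and Mxd4 without the untreated β array 1 (0.0538).

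**Figure D1:**
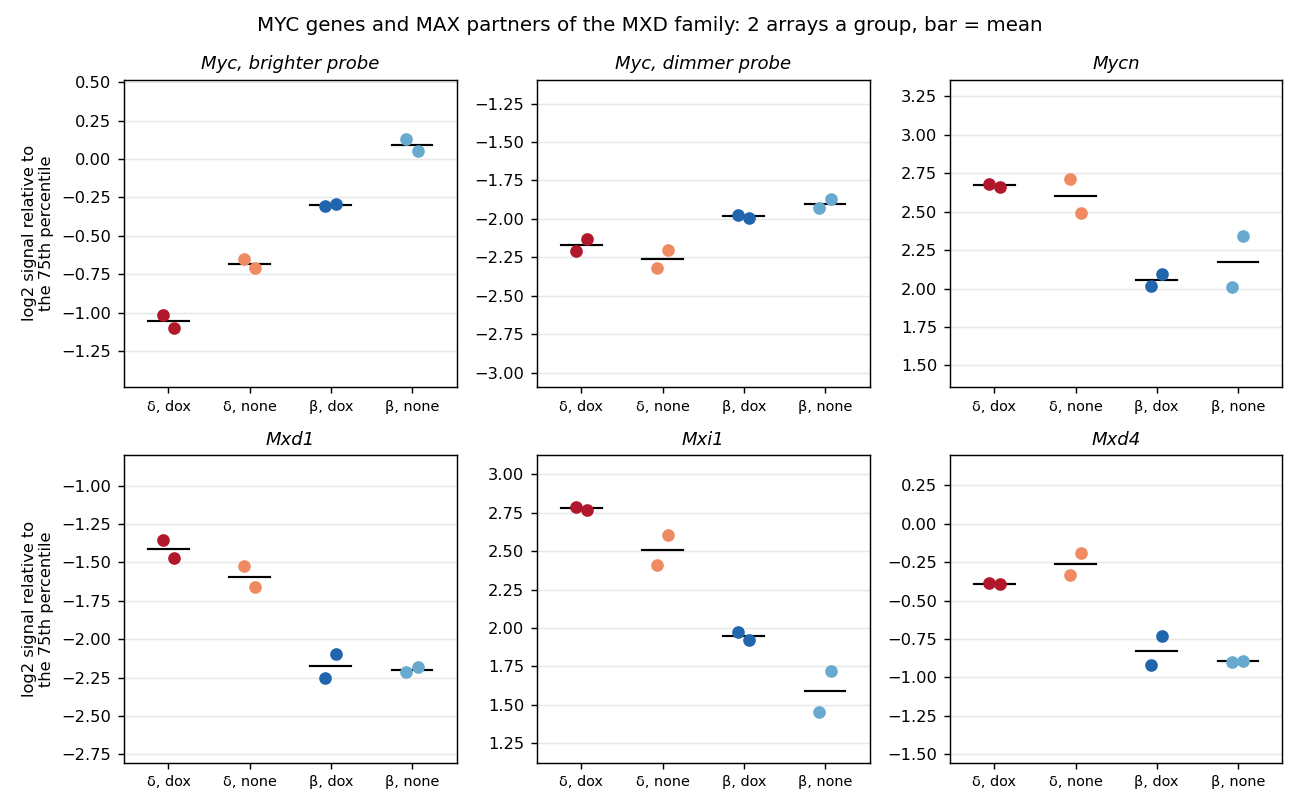
Log2 signal relative to the array's 75th percentile (vertical axis, each panel spanning 2 units at its own height) for both probes of Myc and for Mycn, Mxd1, Mxi1 and Mxd4 in the 4 groups (horizontal axis; dox is doxycycline). Points are single arrays and bars are means of 2 arrays. The brighter Myc probe is lower in all 4 δ arrays than in the β arrays, and Mycn and the 3 MXD genes are higher.

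Among the ribosome genes, those called between the lines were all lower in δ cells. With doxycycline, 3 members were lower (Myc, Ddx21 and Rrp12) and 1 higher (Mycn), where 15.2% of all genes passed in either direction. Without doxycycline 5 were lower (Myc, Ddx21, Heatr1, Rrp12 and Utp20) and 0 higher, where 13.2% passed. These shares of the 36 members are near the background, so the counts alone set the members apart from no other genes.

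Ddx21, an RNA helicase of the nucleolus that acts in ribosomal RNA transcription and processing, differed most. It read 1.44 and 1.29 in δ cells with doxycycline, against 2.35 and 2.20 in β cells with doxycycline. Without doxycycline it read 1.40 and 1.39 in δ cells, against 2.24 and 2.55 in β cells. The δ arrays spanned a narrow range, and all lay below the β arrays. The differences were -0.91 ± 0.13 with doxycycline (1.88-fold lower; adjusted p = 0.00918) and -0.997 ± 0.13 without it (2.00-fold lower; adjusted p = 0.00617). Without the treated β array 1 or either treated δ array the first call was lost (adjusted p between 0.0569 and 0.0828), and the second only in the fit of the 4 untreated arrays (adjusted p = 0.0624).

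The other calls were in the small subunit group, whose 5 members encode parts of the processome that folds the ribosomal RNA precursor and later maturation factors. Heatr1 (a processome protein) read 2.33 and 2.23 in untreated δ cells, against 2.71 and 2.81 in untreated β cells. Utp20, a large scaffold protein of the same particle, read 1.31 and 1.34 in untreated δ cells, against 1.87 and 2.01 in untreated β cells. Rrp12, which acts in maturation and export of the small subunit, read 2.45 and 2.28 in untreated δ cells, against 2.87 and 3.17 in untreated β cells. In each of the 3 genes the untreated δ arrays lay below the untreated β arrays. Heatr1 differed by -0.49 ± 0.09 (1.40-fold lower; adjusted p = 0.0234), Rrp12 by -0.65 ± 0.14 (1.57-fold lower; adjusted p = 0.0315) and Utp20 by -0.61 ± 0.14 (1.53-fold lower; adjusted p = 0.037).

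With doxycycline Rrp12 read 2.16 and 2.17 in δ cells, against 2.81 and 2.61 in β cells. It was just past the threshold, with a difference of -0.54 ± 0.14 (1.46-fold lower; adjusted p = 0.04997). Heatr1 (-0.37; adjusted p = 0.0505) and Utp20 (-0.38; adjusted p = 0.122) did not pass there. These calls were less steady than those of Myc and Ddx21. Each untreated call of the 3 genes was lost without at least 6 of the 8 arrays in turn, the untreated β array 2 and both treated δ arrays among them, with adjusted p between 0.0502 and 0.116. The spots of Utp20's only probe and of Rrp12's brighter probe on the untreated β array 1 lay in deviating tiles. Without such tiles Rrp12 rests on its dimmer probe, with a difference of -0.37 and an adjusted p of 0.498 in untreated cells.

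**Figure D2:**
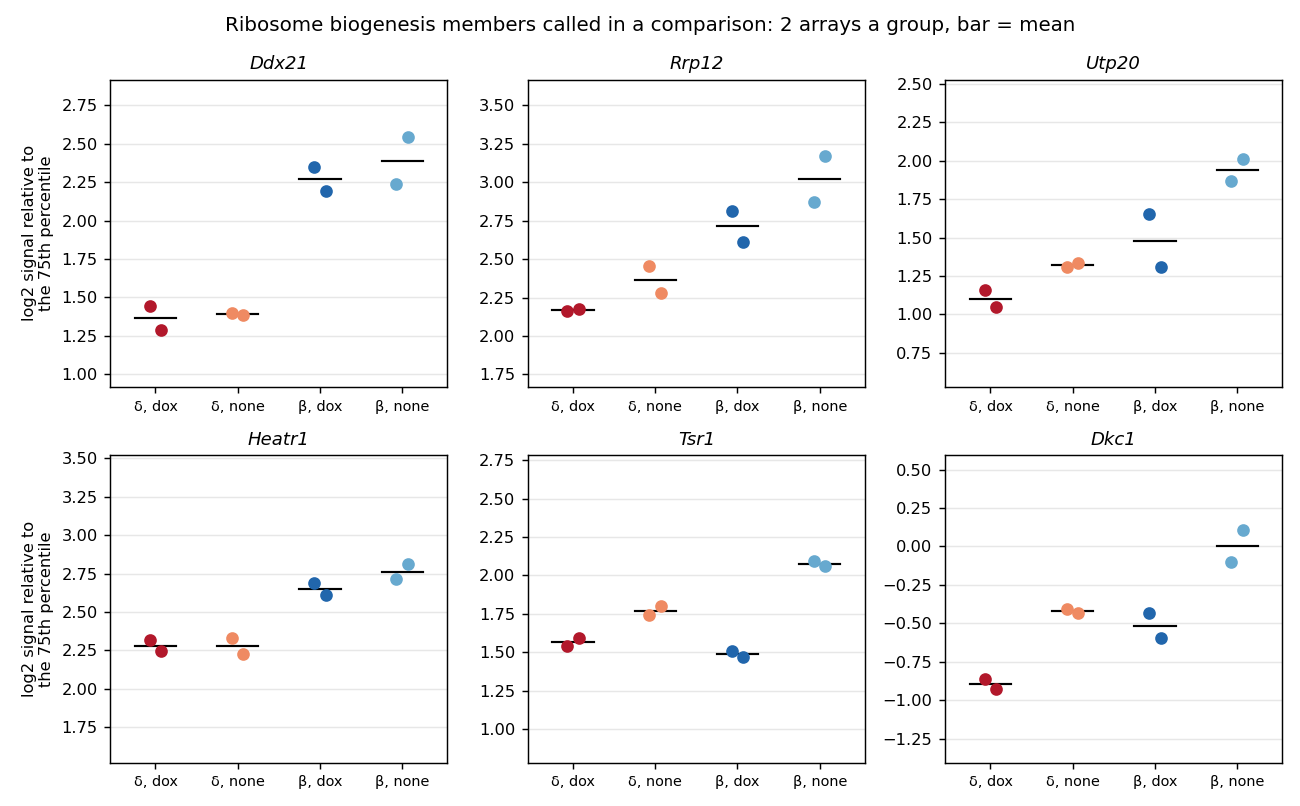
Log2 signal relative to the array's 75th percentile (vertical axis, each panel spanning 2 units at its own height) for the 6 ribosome genes called in a comparison, in the 4 groups (horizontal axis; dox is doxycycline). Points are single arrays and bars are means of 2 arrays. Ddx21, Rrp12 and Heatr1 are lower in the δ arrays than in the β arrays, and Tsr1 and Dkc1 are lower with doxycycline within each line.

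Most of the 36 members, called or not, had differences below zero. With doxycycline 28 of 36 had a difference below zero (median -0.13), beside 51.0% of all genes (median -0.01). Without doxycycline 32 of 36 did (median -0.29), beside 47.0% of all genes (median 0.02). The δ arrays lay wholly below the β arrays for 19 members with doxycycline and for 23 without it, where 33.1% and 23.9% of all genes did so. They lay wholly above for 6 members with doxycycline and 2 without it, where 35.4% and 29% of all genes did so. The untreated median moved with single arrays, to -0.37 without the untreated β array 1 and to -0.16 without the untreated β array 2. With doxycycline it was -0.04 when each array's median was subtracted in place of the 75th percentile, and the median of all genes was then 0.07, so both had moved up.

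By role and on the brightest probes, all 5 small subunit members had untreated differences below zero (median -0.49). So did all 4 box H/ACA members (median -0.36), all 4 box C/D members (median -0.24) and 10 of 11 large subunit members (median -0.22). Both genes of RNA polymerase I, Polr1a and Polr1b, lay near zero (0.00 and -0.02). Dkc1, which encodes dyskerin, the pseudouridine synthase of the box H/ACA particles, came closest to the threshold among the rest. It read -0.40 and -0.44 in untreated δ cells, against -0.10 and 0.11 in untreated β cells, a difference of -0.42 ± 0.11 (adjusted p = 0.0595). The second Dkc1 probe had the opposite sign, averaging -0.89 in untreated δ cells, against -1.16 in untreated β cells. So did the dimmer Gar1 probe, averaging 0.62 in untreated δ cells, against 0.42 in untreated β cells, with overlapping arrays. The brightest Gar1 probe had a spot in a deviating tile of the untreated δ array 1, where it read 3.58, against 4.31 on array 2. The large subunit GTPase gene Gnl2 was an exception in sign, with 0.44 with doxycycline (adjusted p = 0.0525) and 0.28 without it (adjusted p = 0.18). The nucleolar histone chaperone gene Npm1 also lay above zero on its brightest probe, at 0.30 with doxycycline (adjusted p = 0.086) and 0.06 without it (adjusted p = 0.731). Npm1 probe A_66_P129873 had the same sign, averaging 6.57 in δ against 6.31 in β cells with doxycycline and 6.53 against 6.47 without it. Probe A_55_P2117243 averaged 5.05 against 5.04 with doxycycline, and 4.86 in untreated δ cells, against 5.09 in untreated β cells, the opposite sign.

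**Figure D3:**
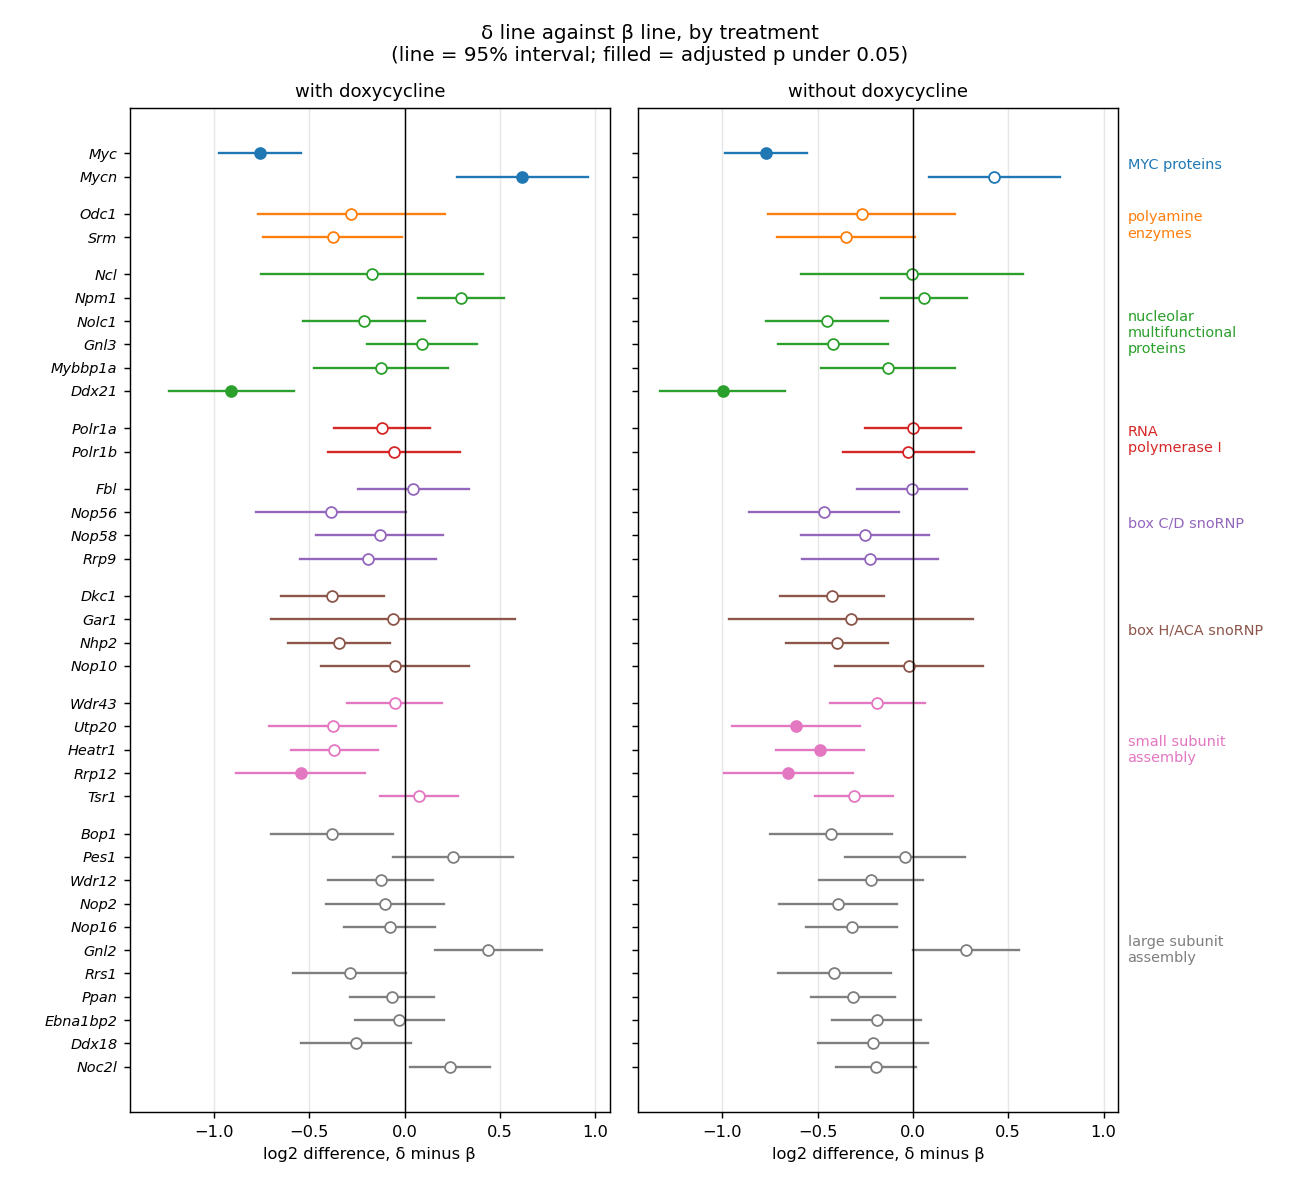
Log2 difference of the δ line minus the β line (horizontal axis) for the 36 members, ordered by role down the page, with doxycycline on the left and without it on the right. Lines are 95% intervals and filled points have an adjusted p under 0.05. Filled points are 4 on the left, Mycn alone above zero, and 5 on the right, all below zero.

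The next question was what 24 h of doxycycline did within each line. In bulk RNA, fewer cells of a type and less RNA per cell cannot be told apart, which holds for every comparison here. By the test, 0 of the 36 members passed in the δ line, where 0.0736% of all genes passed, and 0 passed in the β line, where 0.247% passed. At an unadjusted p under 0.05 there were 7 of 36 members in the δ line, where 15.0% of all genes had such a p, and 11 of 36 in the β line, where 18.2% had one. Both lines' values are therefore given as differences, without calls.

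In the δ line 22 of 36 members had a difference below zero (median -0.04), beside 49.9% of all genes (median 0.00). In the β line 30 of 36 did (median -0.14), beside 44.2% of all genes (median 0.03). The treated δ arrays lay wholly below the untreated ones for 15 members and wholly above for 7, where 27.6% and 30.4% of all genes did so. The treated β arrays lay wholly below the untreated ones for 16 members and wholly above for 1, where 20.3% and 26.6% of all genes did so. The β median rested on the untreated arrays: it was -0.26 without the untreated β array 1 and -0.03, with 21 of 36 below zero, without the untreated β array 2.

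Myc was lower on both treated arrays of each line, with no overlap in the array values given above. Its brighter probe differed by -0.38 ± 0.09 in the δ line (adjusted p = 0.204) and by -0.39 ± 0.09 in the β line (adjusted p = 0.103). The dimmer probe lay near zero, at 0.09 in the δ line and -0.08 in the β line. Mycn differed by 0.07 ± 0.14 in the δ line (adjusted p = 0.823) and by -0.12 ± 0.14 in the β line (adjusted p = 0.724), within the spread of its arrays.

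Among the polyamine enzymes, Odc1, the ornithine decarboxylase that limits the pathway and a well-known MYC target, ran against Myc on its brighter probe. It read 4.02 and 3.93 in δ cells with doxycycline, against 3.60 and 3.40 in δ cells without it. In β cells it read 4.08 and 4.43 with doxycycline, against 3.52 and 4.01 without it. On that probe the treated arrays were above the untreated ones in both lines, and neither difference passed. It was 0.48 ± 0.20 in the δ line (adjusted p = 0.342) and 0.49 ± 0.20 in the β line (adjusted p = 0.274). The dimmer Odc1 probe (A_52_P436238) read 0.64 and 0.55 in treated δ cells, against 0.60 and 0.44 in untreated δ cells. In β cells it read 1.15 and 0.95 with doxycycline, against 0.28 and 1.03 without it, so its arrays overlapped in both lines. Srm, the spermidine synthase, had the opposite sign, at -0.22 in the δ line and -0.19 in the β line. Its dimmest probe, A_66_P113076, read -6.85 on the untreated δ array 1, in a deviating tile, and between 1.32 (untreated δ array 2) and 1.97 on the others. That gives the probe a difference of 4.13 in the δ line, which the other 2 Srm probes did not have (-0.22 and -0.13).

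In the nucleolar group, Gnl3 and Nolc1 had the lowest β values. Gnl3, the gene of nucleostemin, a GTP-binding protein of growing cells, read 0.00 and -0.02 in δ cells with doxycycline, against -0.05 and 0.17 in δ cells without it. In β cells Gnl3 read -0.21 and 0.01 with doxycycline, against 0.48 and 0.48 without it. The difference was -0.07 in the δ line (adjusted p = 0.79) and -0.58 ± 0.12 in the β line (adjusted p = 0.0911). Nolc1, which encodes a chaperone of snoRNPs, differed by -0.22 in the δ line (adjusted p = 0.433) and by -0.46 ± 0.13 in the β line (adjusted p = 0.156), where it read 3.72 and 3.40 with doxycycline, against 3.94 and 4.10 without it. Npm1 read 6.92 and 6.90 in δ cells with doxycycline, against 6.72 and 6.62 in δ cells without it. That is a difference of 0.24 ± 0.09 (adjusted p = 0.323), and in the β line its arrays overlapped. Ncl, the gene of nucleolin, differed by -0.37 in the δ line (adjusted p = 0.461) and -0.21 in the β line (adjusted p = 0.724). Ddx21 and the brightest probe of Mybbp1a, whose product binds MYB and acts in ribosomal RNA transcription, had overlapping arrays in both lines. Mybbp1a probe A_51_P332627 averaged 3.02 with doxycycline, against 3.21 without it, in the δ line and 2.88 against 3.07 in the β line, without overlap. Its probe A_55_P2824198 averaged 2.46 against 2.55 in the δ line, with overlap, and 2.44 against 2.72 in the β line, without overlap.

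On their brightest probes, the snoRNP groups differed from each other in their spread. On these probes the 4 box C/D members, Fbl with its methyltransferase, Nop56, Nop58 and Rrp9, had differences between -0.02 and 0.07 in the δ line. In the β line theirs lay between -0.07 and 0.03. The dimmer Nop58 probes lay lower in both lines, down to -0.32 in the δ line. The dimmer Nop56 probe averaged 2.51 with doxycycline, against 2.64 without it, in the δ line and 2.73 against 2.73 in the β line. Of the 4 box H/ACA members, Nhp2 and Nop10 had differences between -0.06 and 0.13 in the δ line and between -0.04 and 0.08 in the β line. Gar1 lay at 0.23 and -0.04 on its brightest probe, which had a spot in a deviating tile of the untreated δ array 1, and at -0.98 and -0.64 on its other probe. On its brighter probe Dkc1 read -0.86 and -0.93 in δ cells with doxycycline, against -0.40 and -0.44 in δ cells without it, a difference of -0.47 ± 0.11 (adjusted p = 0.204). In β cells it read -0.43 and -0.59 with doxycycline, against -0.10 and 0.11 without it, a difference of -0.52 ± 0.11 (adjusted p = 0.0976). The treated arrays were lower in both lines, without overlap.

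Of the RNA polymerase I subunits, Polr1b had differences of -0.35 in the δ line (adjusted p = 0.332) and -0.31 in the β line (adjusted p = 0.315). Polr1a, the largest subunit, lay at -0.06 in the δ line and 0.06 in the β line. Neither gene passed.

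The small subunit group had the lowest medians of the groups with more than 2 members, -0.20 in the δ line and -0.31 in the β line. Tsr1, a late maturation factor of the small subunit, read 1.54 and 1.59 in δ cells with doxycycline, against 1.74 and 1.80 in δ cells without it. In β cells Tsr1 read 1.51 and 1.47 with doxycycline, against 2.09 and 2.06 without it. Replicates agreed within 0.1 in each group, and the treated arrays were lower in both lines. The difference was -0.21 ± 0.08 in the δ line (adjusted p = 0.331) and -0.59 ± 0.08 in the β line (adjusted p = 0.0569, the lowest of any member there). Utp20, Rrp12 and Wdr43 had differences between -0.22 and -0.14 in the δ line and between -0.46 and -0.28 in the β line, and Heatr1 lay at 0.00 and -0.12.

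The large subunit group was mixed in the δ line. Of its 11 members 6 were below zero there (median -0.02) and 9 in the β line (median -0.16). Nop16, a nucleolar assembly factor, read 0.33 and 0.39 in β cells with doxycycline, against 0.85 and 0.80 in β cells without it, a difference of -0.47 ± 0.10 (adjusted p = 0.0931), and differed by -0.23 in the δ line (adjusted p = 0.349). Pes1, which works with Bop1 and Wdr12 in one complex, read 4.44 and 4.44 in δ cells with doxycycline, against 3.96 and 4.04 in δ cells without it. Its difference was 0.44 ± 0.13 in the δ line (adjusted p = 0.26) and 0.14 in the β line (adjusted p = 0.627), and both of its probes had a spot in a deviating tile of the untreated δ array 1. Nop2, which encodes a methyltransferase of ribosomal RNA, differed by -0.13 in the δ line (adjusted p = 0.629) and by -0.42 ± 0.13 in the β line (adjusted p = 0.173). On their brightest probes, the assembly factors Gnl2, Rrs1, Ppan, Ebna1bp2 and Ddx18 had differences between -0.16 and 0.17 in the δ line. In the β line these lay between -0.18 and 0.01. Of the dimmer probes of Ddx18, A_51_P235291 averaged 0.60 with doxycycline, against 1.03 without it, in the δ line. In the β line it averaged 0.78, against 1.26 without it. Probe A_66_P120928 averaged -0.73 against -0.36 in the δ line and -0.61 against -0.35 in the β line. Probe A_55_P2002702 averaged 2.28 against 2.43 and 2.45 against 2.52. The dimmer probe of Ebna1bp2 averaged 0.73 against 0.65 and 0.70 against 0.99. Bop1 and Wdr12 had the opposite sign to Pes1 in both lines, at -0.16 and -0.06 in the δ line and at -0.21 and -0.15 in the β line.

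**Figure D4:**
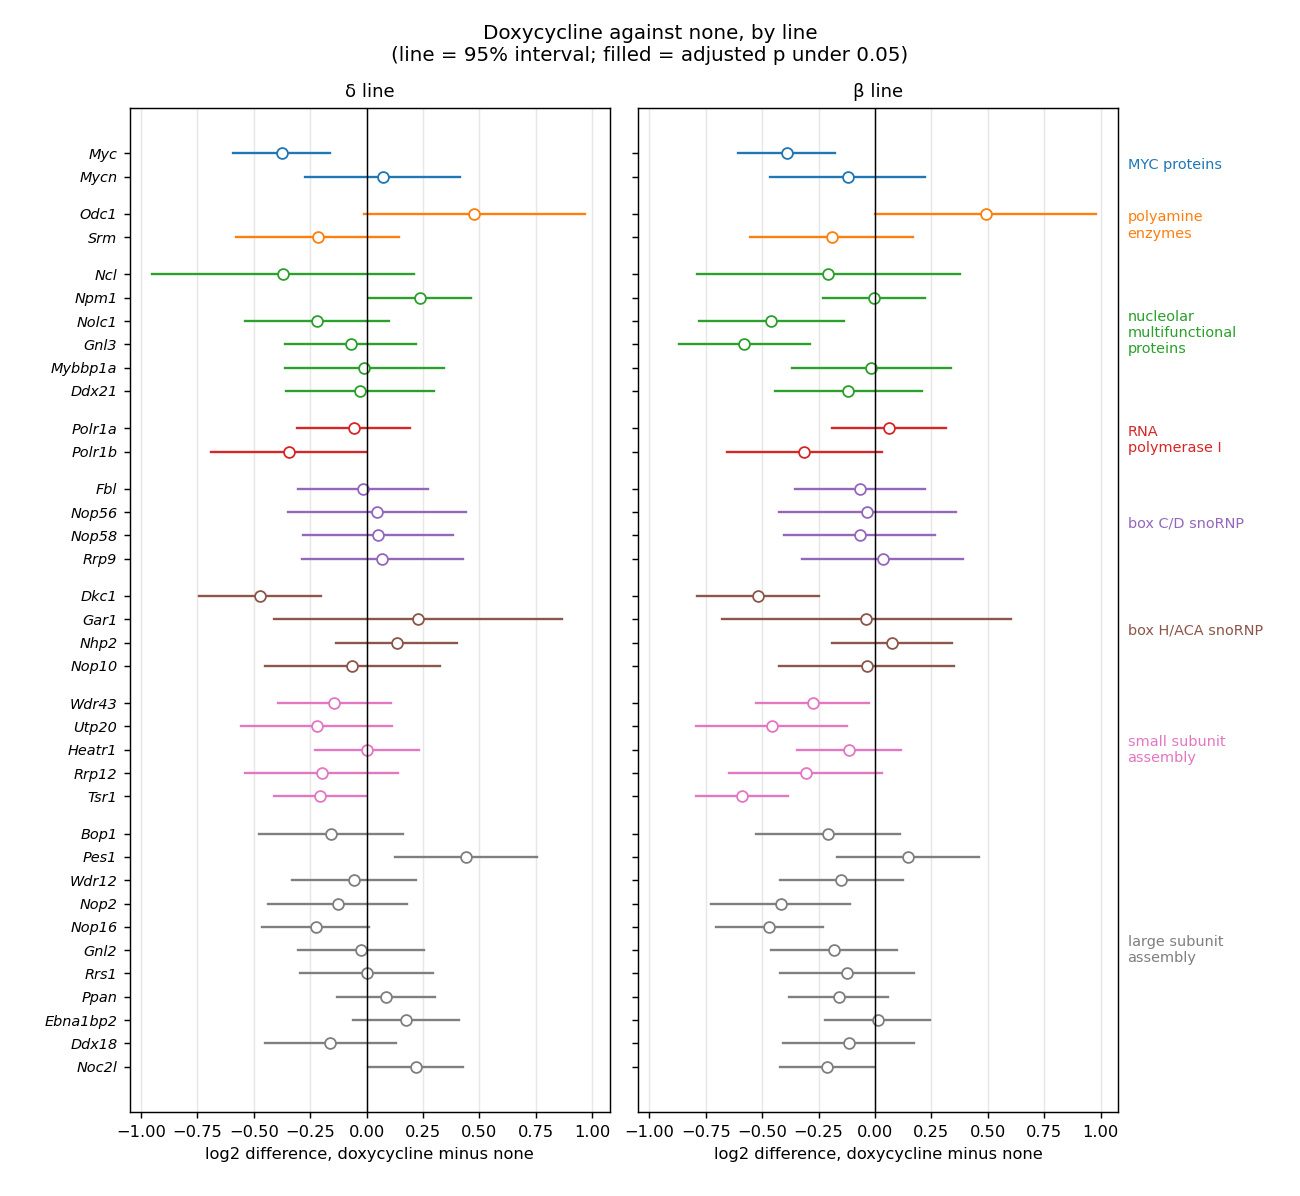
Log2 difference of doxycycline minus none (horizontal axis) for the 36 members, ordered by role down the page, in the δ line on the left and the β line on the right. Lines are 95% intervals and open points have an adjusted p of at least 0.05. All points are open, and the intervals of Myc and Dkc1 lie below zero in both panels.

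Averaged over both lines, which uses all 8 arrays at once, 3 members fell with doxycycline and 0 rose, where 3.12% of all genes passed. They were Tsr1 at -0.40 ± 0.06 (1.32-fold lower; adjusted p = 0.0336), Dkc1 at -0.50 ± 0.08 (1.41-fold lower; adjusted p = 0.0373) and Myc at -0.38 ± 0.06 (1.31-fold lower; adjusted p = 0.0387). Treated arrays were below untreated arrays of the same line in every pairing for each of the 3 genes. Nop16 followed at -0.35 (adjusted p = 0.0572), and Odc1, on its brighter probe, had the highest mean at 0.48 ± 0.14 (adjusted p = 0.125). Mycn lay at -0.03 (adjusted p = 0.9). Of the 36 members, 26 had a mean below zero (median -0.07), beside 46.1% of all genes (median 0.02).

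These 3 calls rest on small margins. Tsr1 was lost without any one β array or treated δ array, and Dkc1 and Myc also without the untreated δ array 1, with adjusted p between 0.0565 and 0.213. Over the mean of its probes in place of the brightest, Dkc1 stood at -0.08 (adjusted p = 0.853) and Myc at -0.19.

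Whether the lines differed in their response was tested as the difference of the 2 doxycycline effects, δ minus β. None of the 36 members passed by limma, where 0.00526% of all genes, a single gene, passed. At an unadjusted p under 0.05 there were 3 of 36 members, near the 7.52% of all genes. The smallest p-values were those of Noc2l, Tsr1 and Gnl3, each with an adjusted p of 0.649. Noc2l, a nucleolar factor of large subunit export, read 2.31 and 2.30 in δ cells with doxycycline, against 2.10 and 2.07 in δ cells without it. In β cells it read 2.02 and 2.11 with doxycycline, against 2.31 and 2.24 without it. The 2 lines moved in opposite directions, by 0.22 and -0.21, and the difference was 0.43 with a 95% interval from 0.13 to 0.73. For Tsr1 it was 0.38 (0.10 to 0.67) and for Gnl3 0.51 (0.10 to 0.92). For Myc it was 0.02, with an interval from -0.29 to 0.32, an interval wide enough that equal effects are not shown. The members' median was 0.11 (29 of 36 above zero), beside 0.00 over all genes, and was 0.22 without the untreated β array 1 and 0.02 without the untreated β array 2.

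Where a gene had several probes, they did not always run the same way. In 8 genes the probes had opposite signs in a line's doxycycline effect with at least one past 0.3 in size. Tsr1 had 3 probes: in the β line the brightest (A_66_P122758) and A_51_P409132 gave -0.59 and -0.75, and A_55_P2729313, the dimmest, gave 0.41. That dim probe read -2.30 and -1.22 on the untreated β arrays, so its replicates differed by more than the effect. The 2 brighter Tsr1 probes gave the same value in the δ line, -0.21, and the dim one gave -0.40.

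Dkc1's second probe (A_51_P469633) gave -0.47 in the δ line, as its brighter probe did, but 1.12 in the β line. There it read -1.05 and 0.97 with doxycycline, against -1.59 and -0.74 without it. The high value is from the treated β array 2, where the spot lay in a deviating tile. Gar1 likewise split: its brightest probe (A_55_P1994275), in a deviating tile of the untreated δ array 1, gave 0.23 in the δ line and -0.04 in the β line. Its dimmer probe (A_51_P274992) gave -0.98 in the δ line and -0.64 in the β line, and neither passed.

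Nop58 had 4 probes, of which the 3 dimmer gave -0.32, -0.30 and -0.20 in the δ line and the brightest 0.05, while all 4 were below zero in the β line (-0.23 to -0.07). Heatr1's dimmest probe (A_55_P2737802) gave 0.17 in the δ line and 0.52 in the β line, against -0.30 and -0.31 on A_51_P362531 and 0.00 and -0.12 on the brightest. All 3 Heatr1 probes were below zero between the lines, and A_51_P362531 passed over all 44323 probes with doxycycline (-0.60, adjusted p = 0.0307) and without it (-0.61, adjusted p = 0.0279). Rrp12's dimmer probe (A_52_P527874) gave -0.33 in the δ line and 0.06 in the β line, against -0.20 and -0.31 on the brighter one. Between the lines both Rrp12 probes were below zero in both treatments.

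**Figure D5:**
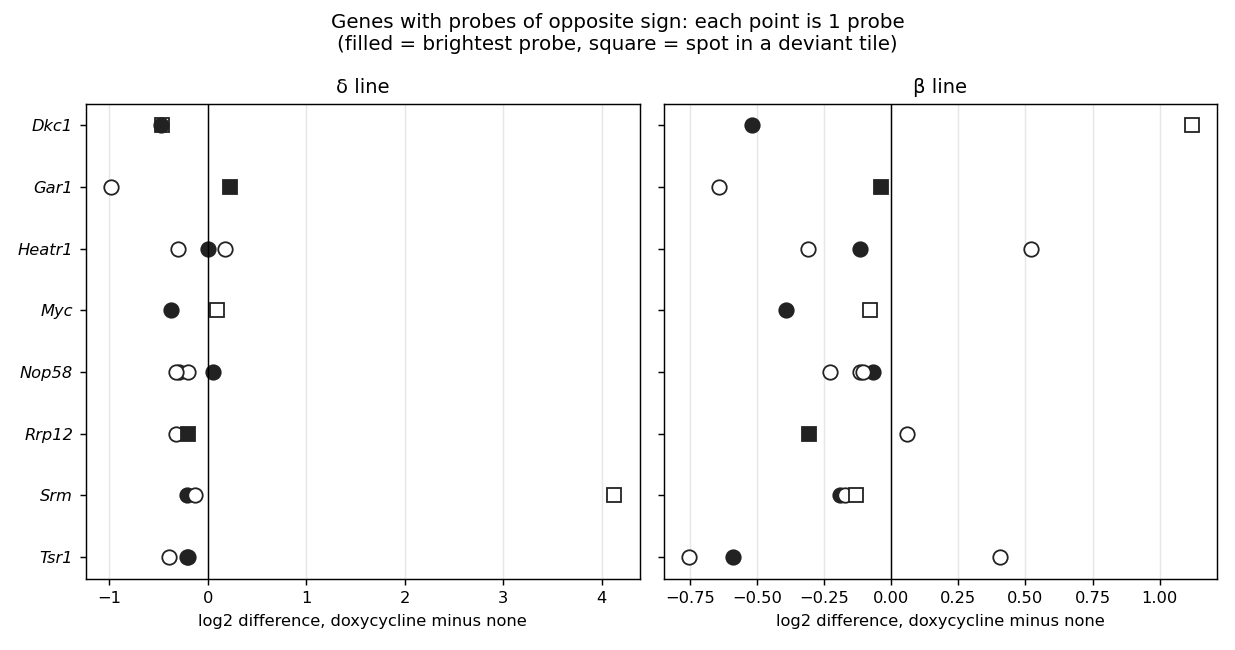
Log2 difference of doxycycline minus none (horizontal axis, with a wider range in the δ panel) for every probe of the 8 genes whose probes had opposite signs, in the δ line on the left and the β line on the right. Each point is 1 probe, filled for the gene's brightest, and squares mark probes with a spot in a deviating tile. The largest value on each side, Srm at 4.13 and Dkc1 at 1.12, is a square.

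Genes of the same pathways outside the 36 were tested in the same fit. In the mean of both lines 0 of 45 further small subunit genes and 1 of 50 further large subunit genes passed, where 3.12% of all genes did. That gene was Urb2, at -0.62 (adjusted p = 0.0429), which read -0.92 and -1.13 in δ cells with doxycycline, against -0.42 and -0.53 in δ cells without it, and -0.88 and -1.18 in β cells with it, against -0.46 and -0.22 in β cells without it. The call was lost without any one array other than the untreated δ array 2 (adjusted p between 0.0636 and 0.202). The further small subunit genes had a median of -0.01 in the δ line (23 of 45 below zero) and -0.13 in the β line (33 of 45), and the large subunit genes -0.02 (28 of 50) and -0.12 (35 of 50). Of 13 further genes of the RNA polymerase I machinery 10 were measured, and 0 passed in any comparison, where at most 15.2% of all genes did.

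Between the lines, 3 further small subunit genes were lower and 1 higher in δ cells with doxycycline, and 5 were lower without it. Ltv1, a maturation factor of the small subunit, differed by -0.67 with doxycycline (adjusted p = 0.0295) and -0.93 without it (adjusted p = 0.0098). Pwp2, a processome protein, differed by -0.62 (adjusted p = 0.0195) and -0.66 (adjusted p = 0.0153). With doxycycline Tbl3 was also lower (-0.52; adjusted p = 0.0407) and Dnttip2 higher (0.39; adjusted p = 0.0396), and without it Wdr75 was lower (-0.44; adjusted p = 0.0352). Of the large subunit genes 1 was lower with doxycycline, Mrto4 (-0.41; adjusted p = 0.032), and 4 without it, among them Ddx31 (-0.57; adjusted p = 0.0157), Rpf2 (-0.55; adjusted p = 0.0195) and Mrto4 (-0.42; adjusted p = 0.0334). These counts of 45 and 50 genes are below the shares of all genes that passed (15.2% with doxycycline and 13.2% without it), and so set neither list apart. The median with doxycycline was 0.00 for the small subunit list and -0.01 for the large subunit list, beside -0.01 over all genes. Without doxycycline it was -0.16 (30 of 45 below zero) and -0.12 (32 of 50 below zero), beside 0.02 over all genes. Of 18 alternatives, the calls with doxycycline were kept in 12 for Ltv1 and Pwp2, 11 for Mrto4, 10 for Dnttip2 and 8 for Tbl3. Those without it were kept in 17 for Ltv1, 15 for Pwp2, 12 for Rpf2, 11 for Ddx31, 8 for Wdr75 and 6 for Mrto4.

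Of 7 measured further genes of polyamine metabolism, Azin1, whose product protects ornithine decarboxylase, was lower in δ cells with doxycycline (-0.64; adjusted p = 0.0112) and without it (-0.65; adjusted p = 0.0109). Smox, the spermine oxidase, was higher (0.47; adjusted p = 0.0391, and 0.46; adjusted p = 0.0428). Without doxycycline the spermine synthase Sms (-0.88; adjusted p = 0.00914) and the acetyltransferase Sat1 (-0.47; adjusted p = 0.0363) were also lower. Between the lines 15.2% of all genes passed in either direction with doxycycline and 13.2% without it. None of the 7 passed in a line's doxycycline effect, where 0.0736% (δ line) and 0.247% (β line) of all genes did. With doxycycline the call of Azin1 was kept in 14 of 18 alternatives and that of Smox in 7. Without it the calls were kept in 17 for Azin1 and Sms, and in only 5 for Smox and Sat1.

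Among 21 other genes often induced by MYC, 5 were lower and 1 higher in δ cells with doxycycline, and 6 lower and 0 higher without it, where 15.2% and 13.2% of all genes passed in either direction. Tfrc, the transferrin receptor, read -0.83 and -0.85 in δ cells with doxycycline, against -0.12 and -0.06 in β cells with it, and -0.44 and -0.63 in untreated δ cells, against 0.53 and 0.50 in untreated β cells. Its lines did not overlap, with differences of -0.75 (adjusted p = 0.00585) and -1.06 (adjusted p = 0.00149). The mitochondrial one-carbon enzymes Shmt2 (-0.69; adjusted p = 0.00948, and -0.58; adjusted p = 0.0169) and Mthfd2 (-0.82 without doxycycline; adjusted p = 0.00451) were lower, as was the cyclin Ccnd2 with doxycycline (-0.97; adjusted p = 0.017). The DNA repair gene Apex1 was higher with doxycycline (0.57; adjusted p = 0.0422). The list's median was -0.21 with doxycycline and -0.20 without it, beside -0.01 and 0.02 over all genes. Of 18 alternatives, the calls with doxycycline were kept in 16 for Tfrc, 15 for Shmt2 and Ccnd2 and 11 for Apex1. Those without it were kept in 18 for Tfrc, 17 for Mthfd2 and 12 for Shmt2.

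In the mean of both lines, where 3.12% of all genes passed, Tfrc was lower with doxycycline (-0.45; adjusted p = 0.0345), with its second probe at 0.06. Of the MYC network Mlxip, a glucose-sensing partner of MLX, was lower (-0.36; adjusted p = 0.0468). Both calls were lost without any one array other than the untreated δ array 2, with adjusted p between 0.0503 and 0.193 for Tfrc and between 0.0764 and 0.24 for Mlxip. Of 5 measured genes often repressed by MYC, 0 passed in any comparison, where at most 15.2% of all genes did.

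The lines also differed in markers of cell identity, on the same arrays as the calls above, and not all in one direction. Of 11 markers of cortical thymic epithelium 8 were kept, and Psmb11, Epcam and Cd83 were not well above background. With doxycycline 2 of the 8 were lower in δ cells, the keratin gene Krt8 (-2.11; adjusted p = 0.000191) and Prss16 (-0.87; adjusted p = 0.0433), and Cxcl12 was higher (0.55; adjusted p = 0.0366). Without it 3 were lower and Cxcl12 was again higher (0.83; adjusted p = 0.00963). The summed signals of the cortical list, relative to the 75th percentile, were 77.9 to 79.9 in treated δ cells and 65.7 to 67.1 in untreated δ cells. They were 85.4 to 95.1 in treated β cells and 81.9 to 94.5 in untreated β cells. Most of each sum is the single gene Ctsl, which read between 5.65 and 6.09 in log2 on the arrays.

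For 5 of 7 medullary markers (Ccl21a and Fezf2 were not well above background) the sums were 4.80 to 5.77 over all δ arrays and 30.6 to 38.8 over all β arrays. Most of that gap is Krt14, a keratin of the medulla, at -3.67 with doxycycline (adjusted p = 7.43e-05), and the untreated median of the 5 markers was -0.07 with 1 called. Of 7 fibroblast markers, Pdgfrb (2.26; adjusted p = 0.000202) and Col1a2 (0.44; adjusted p = 0.0453) were higher and Col1a1 was lower (-0.59; adjusted p = 0.0228) with doxycycline, with a median of 0.19. Their sums were 516 to 540 over all δ arrays and 473 to 593 over all β arrays. All 4 measured markers of macrophages and dendritic cells had differences below zero with doxycycline (median -0.92, 3 called lower), as did 3 of 4 without it (median -0.96, 3 called lower), while Adgre1 and Itgax were not well above background. Their sums were 6.25 to 7.59 over all δ arrays and 7.94 to 11.9 over all β arrays.

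For 10 of 13 thymocyte markers (Ptprc, Cd3g and Rag1 were not well above background) the sums were 19.2 to 32.6 over all δ arrays and 68.3 to 84.6 over all β arrays. That gap is largely Thy1, which read 3.49 and 3.54 in treated δ cells, against 5.63 and 5.65 in treated β cells. Thy1 was low on the untreated δ array 1 (-0.004, against 3.57 on array 2), the array of the lowest δ sum. Of the 10 markers 0 were lower and 1 higher in δ cells with doxycycline (median -0.30), and 0 were lower and 2 higher without it (median 0.17). Thy1 is thus not called, and the spread of its untreated δ arrays enters its test in both treatments. No marker passed in a line's doxycycline effect. The part of these differences in identity in the lower Myc, Ddx21 and small subunit levels of the δ line was not tested.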

How the data were processed

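RNA (200 ng per array, per the labels) was measured on one-colour Agilent mouse arrays. Per the file headers, the authors' scans were turned into spot intensity by Feature Extraction 11.5.1.1, Agilent's software, which subtracted background and, on 5 of the 8 arrays, detrended across the array; flags mark dim, saturated and outlying spots. The deposited intensities are not normalized between arrays, and the sources used here name no statistical test.

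Here log2 intensity was centred on each array's 75th percentile. Of 56605 probes, 98 flagged as outliers were left out, and the 44323 kept were above background by Agilent's flag in both replicates of 1 or more groups. Accessions gave 27211 of these a RefSeq symbol. The brightest probe stood for each of 19020 genes. Group means over 8 arrays (4 residual degrees of freedom) were fitted with limma 3.58.1 (R 4.3.3), with Benjamini-Hochberg adjustment over all genes at 0.05. The 6 comparisons share arrays. The script was tested on simulated data. Only 2 arrays a group limit the precision.

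Members and lists were chosen with earlier results of these data known. Per-array values are given for Myc, Mycn, every member called, and the members of smallest p (6 per line's doxycycline effect and for untreated lines, 3 otherwise). Genes whose probes had opposite signs are given by probe, and up to 3 called genes per further list and direction. Alternatives covered normalization, background correction (normexp, offset 50, on median spot signals, since mean spot signals were not used here), filters, probes, deviating tiles, the variance model, a replicate block and each array left out. The signal before detrending was added after seeing the data.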

Additional observations from a re-analysis of the deposited data

How the results depend on the processing

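All 52 called results of named genes kept their direction under every alternative run, and 7 also stayed called under all of them, those of Tfrc between untreated lines and of Krt8, Krt14 and Pdgfrb between the lines. For the doxycycline effects in the δ line and their difference, 0 members passed under any alternative. In the β line 1 member (Tsr1) passed in place of 0 with probes above background on all arrays, with an intensity trend or without deviating tiles. In the mean of both lines, 3 became 0 with median centring or the mean over probes, 1 with normexp or before detrending, and 0 to 5 with an array left out (5 without the untreated δ array 2). Between treated lines, 4 became 7 with quantile normalization, 2 with median centring or no filter, and 0 to 6 with an array left out. Between untreated lines, 5 became 2 with median centring, 0 in the fit of the 4 arrays, 9 with an intensity trend, and 2 to 5 with an array left out. The members' median ranged with an array left out from -0.256 to -0.0298 (β line), 0.0187 to 0.22 (difference of effects) and -0.371 to -0.157 (untreated lines). It was -0.0429 between treated lines with median centring and -0.198 between untreated lines over the mean of probes. Values that changed sign were, by single probe, Tsr1 (0.41 in the β line, -0.81 in the difference, 0.00407 in the mean), Dkc1 (1.12 in the β line, 0.33 in the mean, 0.27 between untreated lines) and Myc (0.0911 in the δ line, 0.00584 in the mean). Over the mean of probes Dkc1 stood at 0.30 in the β line. With an array left out, the Myc difference of effects ranged from -0.0295 to 0.0595, and Mycn from -0.289 to 0.0456 (β line), -0.0377 to 0.179 (δ line) and -0.109 to 0.0582 (mean). With normexp Mycn in the δ line was -0.00475. The causes were not tested. Genes called among all ranged from 0 to 333 (β line, 47 in the reported fit), 0 to 1621 (δ line, 14), 0 to 1056 (difference, 1), 1 to 2272 (mean, 593), 697 to 4114 (treated lines, 2899) and 715 to 3759 (untreated lines, 2512). The promoter share was 3.57% before the start alone, against 21.4%. Same-numbered arrays correlated at 0.0185 (β) and 0.0759 (δ) in their deviations, so they share only a number; with the replicate block 0 members passed in either line, their difference or mean. Signal over background did not limit the members' brightest probes.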
